A study of Homo sapiens with 6 samples.

Results

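The amino acid stress response was read from 10 genes, ATF4, ATF3, DDIT3, ASNS, TRIB3, CHAC1, PSAT1, PHGDH, SLC7A11 and SESN2, which were found by symbol among the 20030 genes of the deposited count table. All 10 were listed and all 10 had enough counts to be tested. The 6 RNA-seq libraries were labelled as H929 (NCI-H929, an established human multiple myeloma cell line), 3 with IGF2BP1 knocked down (IGF2BP1-KD) and 3 from control cells (IGF2BP1-NC). By the study's description, knockdown cells were made by lentiviral transduction with an shRNA vector and selected with a drug as stable lines, with 2 shRNA targets listed. Neither the target used for these libraries nor the control insert is named, and nothing says whether replicates were separate cultures, so P values measure the spread between these libraries, which may be technical.

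ATF4 is a bZIP transcription factor at the centre of the integrated stress response. Kinases that sense missing amino acids, unfolded protein, low heme or double-stranded RNA phosphorylate the initiation factor eIF2, which slows translation in general and lets the ATF4 mRNA be translated. ATF4 then switches on genes for amino acid synthesis and import together with its own partners and brakes. Since much of its control is translational, counts of ATF4 mRNA do not give its protein level.

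Levels are given as CPM, the gene's counts scaled to a common library total after TMM correction for composition. Totals ran from 16885449 to 18112179 counts per library, and a gene without a count could still have stood at up to 0.178 CPM (the level of 3 counts). Of 13 plasma cell markers 7, among them TNFRSF17, IRF4 and CD38, never exceeded 3 counts in any library, and 2 of the 13 were above 1 CPM throughout. All 16 erythroid markers were above 1 CPM in every library, so the labelled cell type was not borne out by its markers. Of these 16 erythroid markers 7 were called lower and 2 higher in IGF2BP1-KD (14.5% and 13.7% of all tested genes), and their summed level was 8741 to 10673 CPM in IGF2BP1-NC and 9660 to 10567 CPM in IGF2BP1-KD libraries. The summed level of 12 eosinophil, basophil and mast cell markers was 201 to 224 CPM in IGF2BP1-NC and 547 to 1088 CPM in IGF2BP1-KD libraries. Of these, 7 of 7 tested members were called higher, PRG2 among them (6 of 7 without IGF2BP1-NC library 1). The mast cell protease CPA3 was at 0 or 1 count. Of the 12 markers 4 were above 1 CPM in every library. A gene could pass the count filter through its IGF2BP1-KD libraries alone, so the 7 of 7 may be partly fixed by the filter. In RNA from a whole culture, fewer cells of a type and less RNA per cell cannot be told apart, and the part of these markers in the results below was not tested. IGF2BP1 itself stood at 430.9, 400.8 and 450.6 CPM in IGF2BP1-NC libraries 1, 2 and 3 and at 122.6, 116.8 and 115.2 CPM in the IGF2BP1-KD libraries, so each library carried the level of its label.

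One library stood apart for the stress genes. In IGF2BP1-NC library 1, 9 of the 10 genes were at least 2-fold above the mean of IGF2BP1-NC libraries 2 and 3, and the remaining gene, ATF4, was 1.75-fold above it. The same was true of 1.95% of all 11994 tested genes in that library. In each IGF2BP1-KD library 0 of the 10 genes were 2-fold above the rest of their group, where the share of all genes was 0.384%, 0.334% and 1.16% in libraries 1, 2 and 3. For IGF2BP1-NC libraries 2 and 3 the rest of the group includes library 1, so their counts in both directions follow from it. In these libraries 0 of the 10 were above the rest (0.525% and 0.542% of all genes). At least 2-fold below it were 6 and 4 of the 10 (1.4% and 1.88% of all genes). Neither count says anything further. The median ratio of the 10 genes was 2.90 in IGF2BP1-NC library 1, 0.477 and 0.532 in IGF2BP1-NC libraries 2 and 3, and 0.991, 1.06 and 0.923 in IGF2BP1-KD libraries 1, 2 and 3. These ratios describe single libraries and carry no test. Results for the 10 genes are therefore given with all 6 libraries and without IGF2BP1-NC library 1. That library was set aside because of the values of these same genes, which lowers their control mean and spread. P values of the 10 genes without it are thus descriptive and are not an independent test.

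Promoter sequences are shown for the 3 genes whose window held the C/EBP-ATF response element, the DNA site bound by ATF4 with a C/EBP partner. Whether the element bears on the values in IGF2BP1-NC library 1 was not tested. Windows of the 250 bases before the annotated start (RefSeq, GRCh38.p14) were found for 9 of the 10 genes and not for SLC7A11. These starts differ from the ends of the GENCODE gene spans given below. The CHAC1 window lies wholly within its GENCODE span, and the ASNS and ATF3 windows lie partly within theirs. The element was searched as TGATGNAA on both strands and was present in 3.14% of all 35116 windows. The 9 genes had 15 windows, so a share of windows is not a share of genes. Among the 9 genes the element was found in ASNS, ATF3 and CHAC1. It was not found in the windows of the other 6, which says only that these letters were absent there. Capitals mark the element and, in ASNS, also GTTACA, the core of the second site of its nutrient-sensing unit, which was present in 5.59% of windows and also in the TRIB3 windows. The sites did not overlap each other. The cAMP response element TGACGTCA was present in 1.65% of windows and in 0 of the 9 genes.
ASNS, chr7:97872409-97872658, minus strand, with the element starting 68 bases and GTTACA 48 bases before the start: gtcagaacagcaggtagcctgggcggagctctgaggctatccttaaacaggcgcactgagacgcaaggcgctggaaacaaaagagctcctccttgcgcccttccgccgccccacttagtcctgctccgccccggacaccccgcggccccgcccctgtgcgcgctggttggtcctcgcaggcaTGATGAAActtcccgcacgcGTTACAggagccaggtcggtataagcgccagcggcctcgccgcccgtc
ATF3, chr1:212565157-212565406, plus strand, the upstream of its 2 windows, with the element starting 191 bases before the start: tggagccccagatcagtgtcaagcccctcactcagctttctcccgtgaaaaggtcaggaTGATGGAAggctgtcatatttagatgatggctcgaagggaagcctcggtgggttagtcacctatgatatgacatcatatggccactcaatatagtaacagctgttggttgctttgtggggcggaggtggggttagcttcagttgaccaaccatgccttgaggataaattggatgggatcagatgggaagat
CHAC1, chr15:40953221-40953470, plus strand, with the element in reverse orientation starting 209 bases before the start: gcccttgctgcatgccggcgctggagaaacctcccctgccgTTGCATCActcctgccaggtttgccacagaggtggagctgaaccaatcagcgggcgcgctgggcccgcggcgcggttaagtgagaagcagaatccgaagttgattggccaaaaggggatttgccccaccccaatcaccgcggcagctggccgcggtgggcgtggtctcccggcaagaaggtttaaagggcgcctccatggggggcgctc

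With all 6 libraries, none of the 10 genes differed between IGF2BP1-KD and IGF2BP1-NC at an adjusted P under 0.05 (edgeR's quasi-likelihood test, Benjamini-Hochberg adjustment over all tested genes). At this threshold 28.2% of all tested genes differed, 13.7% higher and 14.5% lower in IGF2BP1-KD. One of the 10, ATF4, had an unadjusted P under 0.05 in that test, as had 40.8% of all genes, and DESeq2 called 0 of the 10 and 24.7% of all genes. Without IGF2BP1-NC library 1, set aside from the values of these genes, the same test called 6 of the 10 and 32.8% of all genes. DDIT3, TRIB3 and PHGDH were higher, where 15.8% of all genes were called higher, and ATF4, CHAC1 and SESN2 were lower, where 16.9% were called lower. ATF3, ASNS, PSAT1 and SLC7A11 were called in neither fit. Leaving out any other library left 0 of the 10 called, apart from ATF4, called lower without IGF2BP1-NC library 2, where 19.7% of all genes were called and 10.2% were called lower. The shares of all genes called were 22.8% without IGF2BP1-NC library 3 and 19.7%, 18.9% and 20.4% without IGF2BP1-KD libraries 1, 2 and 3. The IGF2BP1-KD and IGF2BP1-NC groups did not overlap for 4 of the 10 genes with all 6 libraries, namely ATF4, CHAC1, PHGDH and SESN2, against 45.6% of all tested genes, and for 7 of the 10 without IGF2BP1-NC library 1, against 59.1%.

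**Figure D1:**
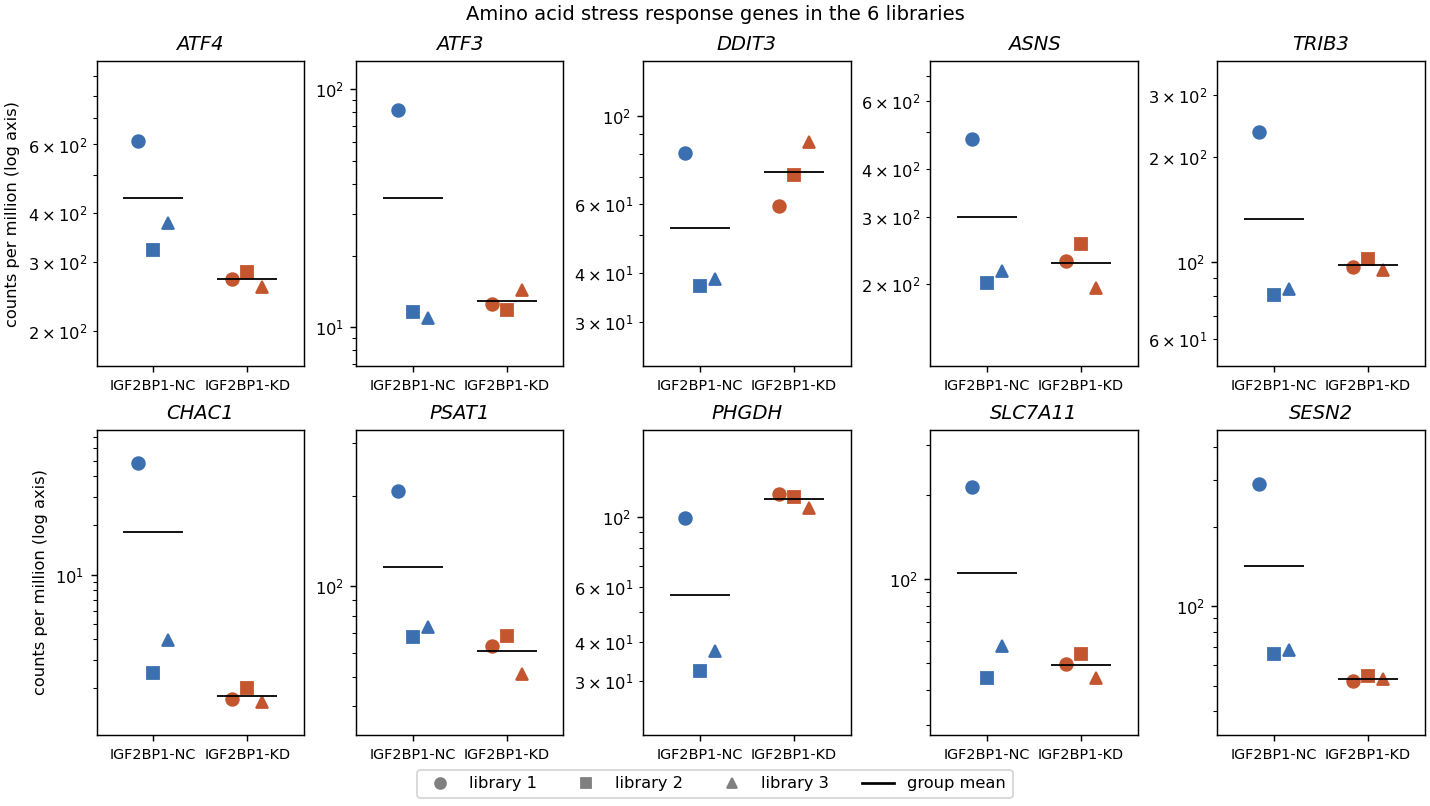
CPM (log axis, a separate scale for each gene) of the 10 genes in the 3 IGF2BP1-NC libraries (blue) and the 3 IGF2BP1-KD libraries (orange), with the marker shape giving the library number and the bar the group mean. In 8 of the 10 panels IGF2BP1-NC library 1 lies above each of the other 5 libraries, the exceptions being DDIT3 and PHGDH.

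Among the regulators, ATF4 (NCBI gene 468, chromosome 22 of GRCh38, 39519695 to 39522683, plus strand, 3 exons) stood at 612.5, 322 and 377 CPM in IGF2BP1-NC libraries 1, 2 and 3 and at 271, 283 and 260 CPM in the IGF2BP1-KD libraries. Every IGF2BP1-KD library lay under every IGF2BP1-NC library, and the 3 IGF2BP1-KD values were close together. The group levels were 437 ± 154 CPM (SD, n = 3) against 271 ± 11.4 CPM (SD, n = 3). ATF4 had a log2 fold change of -0.69 with all libraries (standard error 0.26, edgeR adjusted P = 0.122) and -0.37 without IGF2BP1-NC library 1 (standard error 0.068, edgeR adjusted P = 0.00167). ATF4 also passed the threshold without IGF2BP1-NC library 2 (log2 fold change -0.87, edgeR adjusted P = 0.0490). Processed pseudogenes of ATF4 are annotated elsewhere in the genome, and how the authors' counting treated shared reads is not given in the sources used here.

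ATF3 (NCBI gene 467, chromosome 1, 212565334 to 212620777, plus strand, 4 exons), an early stress-induced bZIP factor, was counted 1431, 200 and 196 times in IGF2BP1-NC libraries 1, 2 and 3 and 223, 200 and 252 times in the knockdown libraries. IGF2BP1-NC library 1 alone was high, and the other 5 libraries stayed between 196 and 252 counts. Its log2 fold change turned from -1.43 (standard error 1.00, edgeR adjusted P = 0.362) to 0.19 without that library (standard error 0.14, edgeR adjusted P = 0.297), so the direction rested on IGF2BP1-NC library 1.

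DDIT3 (NCBI gene 1649, chromosome 12, 57516588 to 57521737, minus strand, 4 exons) encodes CHOP, the bZIP factor tied to cell death under prolonged stress. Its level was 80.8, 37.1 and 38.5 CPM in the IGF2BP1-NC libraries and 59.2, 71.0 and 86.2 CPM in the IGF2BP1-KD libraries. All 3 IGF2BP1-KD libraries lay above IGF2BP1-NC libraries 2 and 3, and only IGF2BP1-KD library 3 lay above IGF2BP1-NC library 1. This gave a log2 fold change of 0.47 with all libraries (standard error 0.38, edgeR adjusted P = 0.431) and of 0.93 without IGF2BP1-NC library 1 (standard error 0.16, edgeR adjusted P = 0.00561). DDIT3 overlaps MARS and MBD6 on the opposite strand, and the strand setting of the counting is not given, so shared reads cannot be told apart. DDIT3 and ATF4 thus differed in direction without IGF2BP1-NC library 1, DDIT3 being higher and ATF4 lower in IGF2BP1-KD.

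TRIB3 (NCBI gene 57761, chromosome 20, 362835 to 397559, plus strand, 4 exons), a pseudokinase that is induced by ATF4 and CHOP and restrains them, reached 234.6 CPM in IGF2BP1-NC library 1 against 80.4 and 83.4 CPM in IGF2BP1-NC libraries 2 and 3. The IGF2BP1-KD libraries lay between these levels at 96.7, 102 and 94.8 CPM. Its log2 fold change turned from -0.44 (standard error 0.51, edgeR adjusted P = 0.580) to 0.26 without IGF2BP1-NC library 1 (standard error 0.064, edgeR adjusted P = 0.00829).

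Of the effectors, SESN2 (NCBI gene 83667, chromosome 1, 28259518 to 28282491, plus strand, 10 exons) encodes sestrin 2, a leucine-sensing inhibitor of mTORC1. Its level was 290 CPM in IGF2BP1-NC library 1, 66.0 and 68.1 CPM in IGF2BP1-NC libraries 2 and 3, and 51.9, 54.1 and 52.8 CPM in the IGF2BP1-KD libraries. The IGF2BP1-KD libraries were tightly grouped and lay under every IGF2BP1-NC library. For SESN2 the log2 fold change was -1.42 (standard error 0.74, edgeR adjusted P = 0.235) with all libraries and -0.34 (standard error 0.066, edgeR adjusted P = 0.00205) without IGF2BP1-NC library 1. The smaller difference was thus the one that passed the test, since the spread among IGF2BP1-NC libraries fell from an SD of 1.22 to 0.031 on the log2 CPM scale.

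CHAC1 (NCBI gene 79094, chromosome 15, 40952962 to 40956512, plus strand, 3 exons), which degrades glutathione and is induced through ATF4, was the lowest of the 10 genes. Its counts were 847, 43 and 71 in IGF2BP1-NC libraries 1, 2 and 3 and 31, 34 and 29 in the knockdown libraries. IGF2BP1-NC library 1 exceeded the mean of libraries 2 and 3 by 14.9-fold (95% exact interval 12.2 to 18.3, counting error only). CHAC1 showed a log2 fold change of -3.34 (standard error 1.53, edgeR adjusted P = 0.190) with all libraries and of -0.85 (standard error 0.29, edgeR adjusted P = 0.0367) without IGF2BP1-NC library 1. With counts this low in 5 libraries, the remaining difference rested on 43 and 71 against 29 to 34 counts.

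SLC7A11 (NCBI gene 23657, chromosome 4, 138164097 to 138242349, minus strand, 12 exons), the cystine importer of system xc-, stood at 213, 44.5 and 57.6 CPM in the IGF2BP1-NC libraries and at 49.7, 53.8 and 44.3 CPM in the IGF2BP1-KD libraries. Outside IGF2BP1-NC library 1 the groups overlapped. Its log2 fold change was -1.09 (standard error 0.72, edgeR adjusted P = 0.337) with all libraries and -0.051 (standard error 0.12, edgeR adjusted P = 0.770) without that library. An antisense gene, SLC7A11-AS1, overlaps it and cannot be told apart from it without the strand setting.

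Among the synthesis enzymes, PHGDH (NCBI gene 26227, chromosome 1, 119648411 to 119744218, plus strand, 12 exons) catalyses the entry step of serine synthesis from glycolysis. Its level was 99.4, 32.3 and 37.3 CPM in the IGF2BP1-NC libraries and 119, 116 and 107 CPM in the IGF2BP1-KD libraries. It was the one gene among the 10 for which every IGF2BP1-KD library lay above every IGF2BP1-NC library, IGF2BP1-NC library 1 included. The group levels were 56.3 ± 37.4 CPM (SD, n = 3) against 114 ± 6.46 CPM (SD, n = 3). With a log2 fold change of 1.02 (standard error 0.50, edgeR adjusted P = 0.216), PHGDH did not pass the test with all libraries. Without IGF2BP1-NC library 1 the value was 1.71 (standard error 0.082, edgeR adjusted P = 4.7e-08), which is 3.28-fold higher in IGF2BP1-KD. PHGDH was the one of the 10 genes called when all libraries were kept and weighted by their estimated quality (limma-voom, log2 fold change 1.54, adjusted P = 0.0202), where IGF2BP1-NC library 1 had a weight of 0.373, the lowest of the 6. The weights were estimated from these same data, so this call is not independent of the one without IGF2BP1-NC library 1.

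PSAT1 (NCBI gene 29968, chromosome 9, 78297125 to 78330093, plus strand, 9 exons), the aminotransferase that follows PHGDH in the serine pathway, was not called higher beside it. It stood at 208, 67.9 and 73.5 CPM in the IGF2BP1-NC libraries and at 63.5, 68.3 and 51.2 CPM in the IGF2BP1-KD libraries. IGF2BP1-KD library 2 lay above IGF2BP1-NC library 2, so the groups overlapped. PSAT1 thus showed a log2 fold change of -0.93 (standard error 0.54, edgeR adjusted P = 0.282) with all libraries and -0.21 (standard error 0.11, edgeR adjusted P = 0.166) without IGF2BP1-NC library 1. PSPH, which completes the pathway, had a log2 fold change of -0.070 (edgeR adjusted P = 0.763) and of 0.13 without IGF2BP1-NC library 1 (edgeR adjusted P = 0.335). PSAT1 has processed pseudogenes elsewhere in the genome.

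ASNS (NCBI gene 440, chromosome 7, 97851677 to 97872542, minus strand, 13 exons), asparagine synthetase, stood at 478, 202 and 217 CPM in the IGF2BP1-NC libraries and at 230, 255 and 196 CPM in the IGF2BP1-KD libraries. IGF2BP1-NC library 1 was again the high one and the other 5 libraries were mixed. For ASNS the log2 fold change turned from -0.40 (standard error 0.41, edgeR adjusted P = 0.531) to 0.12 (standard error 0.10, edgeR adjusted P = 0.425) without IGF2BP1-NC library 1.

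**Figure D2:**
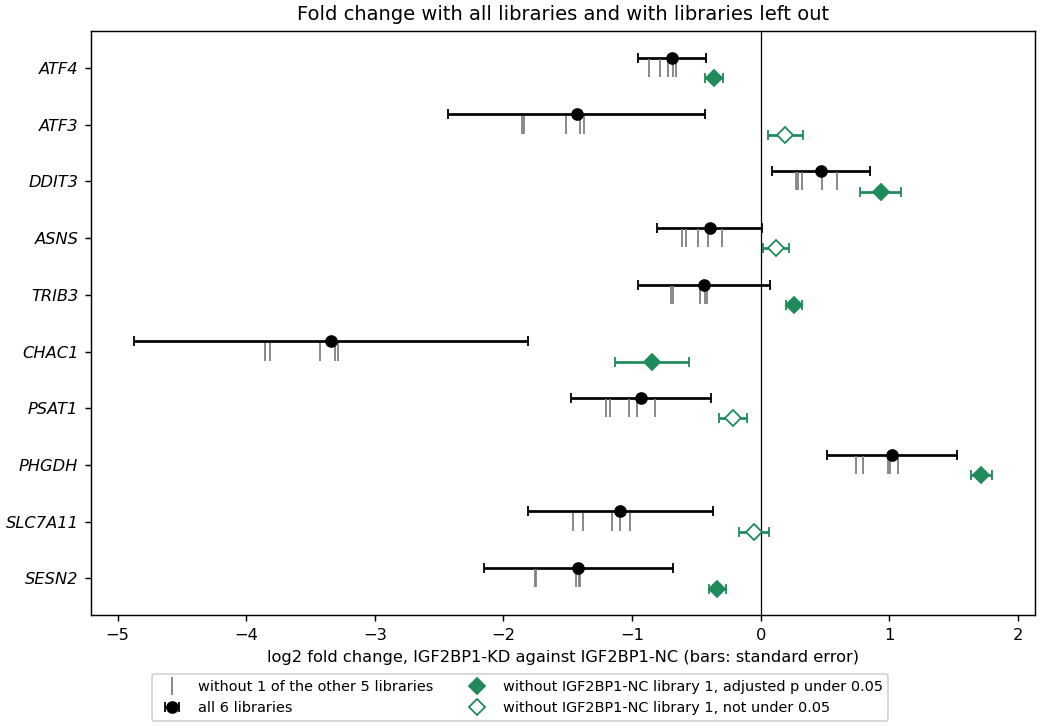
Log2 fold change of IGF2BP1-KD against IGF2BP1-NC for the 10 genes, with standard errors as bars, from all 6 libraries (black circles) and without IGF2BP1-NC library 1 (green diamonds, filled where the adjusted P was under 0.05), and as grey ticks without each of the other 5 libraries. Leaving out IGF2BP1-NC library 1 moved ATF3, ASNS and TRIB3 from below to above 0 and CHAC1 from -3.34 to -0.85.

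Per length, the order of the genes was read from FPKM, the deposited value scaled to gene length. In the IGF2BP1-KD libraries ASNS was the most abundant with 75.7 ± 9.79 FPKM (SD, n = 3), followed by DDIT3 with 59.0 ± 11.3, ATF4 with 33.9 ± 1.38, TRIB3 with 30.5 ± 1.14 and PSAT1 with 27.1 ± 3.87. SESN2 had 15.1 ± 0.338 FPKM and PHGDH 14.7 ± 0.786 FPKM. SLC7A11 and ATF3 followed with 5.07 ± 0.482 and 4.21 ± 0.447 FPKM, and CHAC1 was lowest with 0.297 ± 0.0304 FPKM. Neighbours whose ranges of mean ± SD overlapped were ASNS and DDIT3, TRIB3 and PSAT1, SESN2 and PHGDH, and SLC7A11 and ATF3. In IGF2BP1-NC library 1 ASNS was also the highest, with 161 FPKM, while PSAT1 and SESN2 came next with 93.1 and 83.3 FPKM and ATF4 followed with 77.1 FPKM. DDIT3 was thus above ATF4 in FPKM in the IGF2BP1-KD libraries (59.0 against 33.9 FPKM) and below it in IGF2BP1-NC libraries 2 and 3 (30.5 against 43.0 FPKM as means).

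The 10 genes varied far more among the IGF2BP1-NC libraries than among the IGF2BP1-KD libraries. Their median SD of log2 CPM was 0.890 in IGF2BP1-NC and 0.138 in IGF2BP1-KD libraries, and over all tested genes it was 0.121 and 0.0913. Between IGF2BP1-NC libraries 2 and 3 alone, the median SD was 0.0793 for the 10 genes and 0.0774 for all genes. The median log2 fold change of the 10 genes was -0.81 with all libraries and 0.032 without IGF2BP1-NC library 1, where over all tested genes it was -0.0048 and 0.0054.

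The rest of the pathway was read from 8 lists of 134 further genes, of which 122 were tested. With all 6 libraries 7 (5.74%) were higher and 24 (19.7%) lower in IGF2BP1-KD, against 13.7% and 14.5% of all tested genes. Without IGF2BP1-NC library 1 these counts were 21 (17.2%) and 27 (22.1%), against 15.8% and 16.9%. The counts of single lists below are to be read against the same shares. Of the 31 genes called with all libraries, 29 were also called without IGF2BP1-NC library 1 and 16 were called whichever single library was left out. In IGF2BP1-NC library 1, 17 of the 122 (13.9%) were at least 2-fold above the mean of libraries 2 and 3, against 1.95% of all genes, and 0 were 2-fold below it, against 0.925%. For genes high in that library, leaving it out lowers the control mean and spread. Their calls without it are descriptive and are not an independent test.

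Upstream of ATF4, none of the 4 eIF2 kinases passed the test. The log2 fold changes were -0.082 for EIF2AK1 (HRI, the heme-regulated kinase), 0.12 for EIF2AK2 (PKR), 0.060 for EIF2AK3 (PERK) and -0.10 for EIF2AK4 (GCN2, which senses uncharged tRNA), with edgeR adjusted P from 0.181 to 0.693. They were -0.071, 0.097, 0.12 and -0.11 without IGF2BP1-NC library 1, with edgeR adjusted P from 0.222 to 0.406. Of the 17 genes for eIF2, its kinases, exchange factor, phosphatases and related factors, 2 (11.8%) rose and 4 (23.5%) fell. EIF2S1, the phosphorylated alpha subunit, rose with a log2 fold change of 0.26 (edgeR adjusted P = 0.00855). EIF2A, a separate factor that is not an eIF2 subunit, rose with 0.25 (edgeR adjusted P = 0.0143). The exchange factor subunits EIF2B2, EIF2B5 and EIF2B3 fell, with log2 fold changes of -0.49, -0.32 and -0.30 (edgeR adjusted P = 0.00352, 0.00323 and 0.00453), and so did EIF2S2 with -0.27 (edgeR adjusted P = 0.0277). All 6 were also called without IGF2BP1-NC library 1, where the log2 fold changes were 0.22 for EIF2S1, 0.22 for EIF2A, -0.43 for EIF2B2, -0.34 for EIF2B5, -0.33 for EIF2B3 and -0.17 for EIF2S2. The call of EIF2S2 was lost without any one IGF2BP1-KD library, and that of EIF2A without IGF2BP1-KD library 2. None of the 17 was 2-fold higher in IGF2BP1-NC library 1, and the ratio of PPP1R15A (GADD34, which directs eIF2 dephosphorylation) was 1.15 there.

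Among 14 bZIP factors and related genes, of which 13 were tested, 1 rose and 2 fell. NUPR1, a stress-induced chromatin cofactor, rose from 15, 9 and 10 counts in the control to 36, 23 and 69 in the knockdown libraries (log2 fold change 1.90, edgeR adjusted P = 0.00850), from low counts. CREB3L1 and ATF6B, membrane-bound bZIP factors, fell with log2 fold changes of -0.40 and -0.25 (edgeR adjusted P = 0.00865 and 0.0153). All 3 were also called without IGF2BP1-NC library 1, with log2 fold changes of 2.16 for NUPR1, -0.35 for CREB3L1 and -0.19 for ATF6B, and ATF6B lost its call without IGF2BP1-KD library 1 or 2. The dimer partners CEBPB and CEBPG stood 2.59-fold and 2.27-fold above the mean of libraries 2 and 3 in IGF2BP1-NC library 1, and without that library their log2 fold changes were -0.17 and -0.11 (edgeR adjusted P = 0.0903 and 0.264). ATF5, a relative of ATF4 named here after its values were seen, was counted 2582, 1306 and 1389 times in the control and 3781, 3460 and 3348 times in the knockdown libraries. It was not called with all libraries (log2 fold change 1.01, edgeR adjusted P = 0.0712) and was called without IGF2BP1-NC library 1 (log2 fold change 1.40, edgeR adjusted P = 3.3e-08). Its ratio in IGF2BP1-NC library 1 was 1.92, so that call is descriptive too. ATF5 and PHGDH thus shared the order of the libraries, with IGF2BP1-NC libraries 2 and 3 lowest and every IGF2BP1-KD library highest. The order was not particular to them, since NUPR1, ASS1 and SLC43A1 of the further lists also had it.

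For amino acid metabolism, 2 of 12 tested serine, glycine and one-carbon enzymes fell, GCSH of the glycine cleavage system and MTHFD1L of mitochondrial folate metabolism, with log2 fold changes of -0.48 and -0.45 (edgeR adjusted P = 0.0163 and 0.0112), and without IGF2BP1-NC library 1 these were -0.55 and -0.39, both called. GCSH lost its call without IGF2BP1-NC library 2. Of 15 tested enzymes for other amino acids, 1 rose and 6 fell. ASS1, argininosuccinate synthase of arginine synthesis, rose from counts of 36, 24 and 28 to counts of 125, 116 and 191 (log2 fold change 2.30, edgeR adjusted P = 0.000143). The 4 largest falls were those of glutamine synthetase GLUL (-0.76), the branched-chain aminotransferases BCAT1 (-0.69) and BCAT2 (-0.60), and the proline enzyme PYCR1 (-0.43), with edgeR adjusted P from 0.000666 to 0.0106. In IGF2BP1-NC library 1 the ratio to libraries 2 and 3 was 1.46 for GLUL and 0.885 for BCAT2, and without that library their log2 fold changes were -0.55 and -0.66. In the same fit ASS1 had 2.47, BCAT1 -0.55 and PYCR1 -0.36, and all 5 named enzymes kept their call whichever library was left out. ALDH1L2, GPT2 and CTH were the enzymes at least 2-fold high in that library, with ratios of 3.53, 2.58 and 3.14, and had no adjusted P under 0.05 with all libraries. ALDH1L2, a mitochondrial folate enzyme, turned from a log2 fold change of -0.34 (edgeR adjusted P = 0.731) to 0.54 without IGF2BP1-NC library 1 and was then called higher, which is descriptive only. GPT2 and CTH were not called in that fit either.

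Of 13 tested amino acid transporters 2 rose and 1 fell. SLC43A1 and SLC36A1, carriers of large neutral and of small amino acids, rose with log2 fold changes of 0.45 and 0.41 (edgeR adjusted P = 0.00861 and 0.00952), and SLC7A6 fell with -0.25 (edgeR adjusted P = 0.0119). These were 0.54, 0.33 and -0.29 without IGF2BP1-NC library 1, all 3 called, and SLC7A6 lost its call without IGF2BP1-KD library 1 or 2. Of 13 genes for aminoacyl-tRNA synthetases and tRNA export 4 fell and 0 rose, the falls being CARS (-0.91), MARS (-0.59), YARS (-0.32) and TARS (-0.30), with edgeR adjusted P from 0.0330 to 0.0466. They were -0.62, -0.40, -0.19 and -0.18 without IGF2BP1-NC library 1, all called, but all 4 calls were lost without IGF2BP1-NC library 3 and without any one IGF2BP1-KD library, with CARS reaching an edgeR adjusted P of 0.161. All 13 of these genes were higher in IGF2BP1-NC library 1 than in each of the other 5 libraries, as were 22.5% of all tested genes.

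Of 22 tested further targets of ATF4 and CHOP, 1 rose and 2 fell with all libraries. GADD45B rose with a log2 fold change of 0.82 (edgeR adjusted P = 0.0216). The cell cycle inhibitor CDKN1A (p21) fell with -1.54 (edgeR adjusted P = 0.0292) and the translation repressor EIF4EBP1 with -0.29 (edgeR adjusted P = 0.0455). Without IGF2BP1-NC library 1, 9 rose and 2 fell, and the 2 that fell were CDKN1A (-1.14) and GADD45A (-0.33, edgeR adjusted P = 0.00636, named after its value was seen), while EIF4EBP1 was no longer called (-0.21, edgeR adjusted P = 0.0884) and GADD45B was (0.79, edgeR adjusted P = 0.0404). CDKN1A lost its call without IGF2BP1-NC library 3 or any one IGF2BP1-KD library, GADD45B without IGF2BP1-NC library 3 or IGF2BP1-KD library 2 or 3, and EIF4EBP1 in every such fit except that without IGF2BP1-KD library 1. In IGF2BP1-NC library 1, 8 of the 22 were at least 2-fold high. The count of 9 rises without that library is therefore descriptive only. Among 17 chaperones and related genes of the ATF6 and XBP1 arms of the unfolded protein response, 3 fell and 0 rose, SDF2L1 (-0.44), PDIA4 (-0.26) and HYOU1 (-0.24), with edgeR adjusted P from 0.00382 to 0.0173. These 3 were -0.50, -0.29 and -0.20 without IGF2BP1-NC library 1, all called. PDIA4 lost its call without IGF2BP1-NC library 2 or IGF2BP1-KD library 3, and HYOU1 without IGF2BP1-KD library 3. One gene of this list, HERPUD1, was over 2-fold high in IGF2BP1-NC library 1, while HSP90B1 and CALR had ratios of 1.01 and 0.926. The median log2 ratio of the list was 0.12. In that library 6 of the 17 genes lay above each of the other 5 libraries, against 22.5% of all tested genes.

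**Figure D3:**
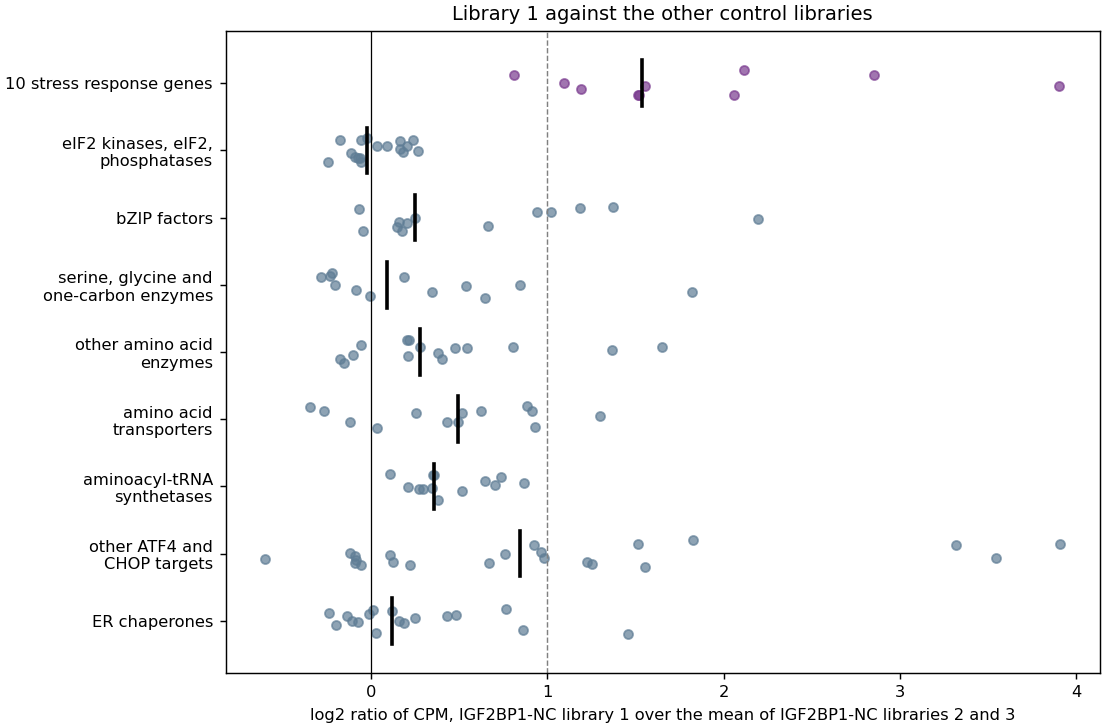
Log2 ratio of the CPM of IGF2BP1-NC library 1 over the mean of IGF2BP1-NC libraries 2 and 3, one point per tested gene, for the 10 stress response genes and the 8 further lists, with black bars at the medians and a dashed line at 2-fold. The median log2 ratio was 1.54 for the 10 genes, 0.84 for further ATF4 and CHOP targets and -0.022 for eIF2, its kinases and related factors.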

How the data were processed

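RNA from 6 libraries, 3 IGF2BP1-KD and 3 IGF2BP1-NC, was sequenced from stranded mRNA libraries. The authors used Trimmomatic for trimming, HISAT2 for alignment to GRCh38 and HTSeq-count for gene counts, and the deposited counts are unnormalized. The deposited FPKM values were described as calculated with Cufflinks. Tool versions, strand setting and annotation release are not given in the sources used here. In 27 rows the symbols differ between the tables, and FPKM rows were matched by order.

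Libraries were grouped by their titles. All 20030 genes entered edgeR 4.0.16 in R 4.3.3 (filterByExpr, TMM, glmQLFit with robust estimation, glmQLFTest, two-sided), and Benjamini-Hochberg adjustment ran over the 11994 tested genes. Standard errors are the log2 fold change divided by the root of the F statistic. Totals were 16885449 to 18112179 counts, and intervals and floors cover counting error only. limma 3.58.1, DESeq2 1.42.0, other scalings and filters, the replicate number as a block and each library left out served as alternatives. Library quality weights were added after seeing the data. On simulated counts for this comparison edgeR called 199 of 200 changed genes and 8 others among 12020. This recovery was not given separately for genes as variable as the stress genes. Their median SD of log2 CPM in IGF2BP1-NC libraries was 0.890, against 0.121 over all tested genes. The simulation thus does not give the power of the test for the stress genes. Figures used matplotlib 3.10.9, and coordinates came from GENCODE release 44.

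The 10 genes and all lists were chosen with earlier results of these data known. Named pathway genes are those with an adjusted p under 0.05, at most 4 per list and direction, and regulators acting on ATF4 whether called or not. PSPH, ATF5, ALDH1L2, GPT2, CTH, HERPUD1, HSP90B1, CALR and marker genes were named after their values were seen.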

Additional observations from a re-analysis of the deposited data

How the results depend on the processing

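With all libraries, 0 of the 10 stress genes were called higher and 0 lower by edgeR, and every alternative that kept all 6 libraries gave 0 and 0, except limma-voom with library quality weights, which called 1 higher (PHGDH). DESeq2 gave CHAC1 no p-value. When single libraries were left out, the stress genes called higher ranged from 0 to 3 and those called lower from 0 to 3. The 3 and 3 came without IGF2BP1-NC library 1, and without IGF2BP1-NC library 2 ATF4 alone was called. Without IGF2BP1-NC library 1 the log2 fold change turned to 0.19 for ATF3, 0.12 for ASNS and 0.26 for TRIB3, and with quality weights it turned to 0.020 for ASNS and 0.069 for TRIB3. The other 5 fits that left out a library kept the direction of all 10 genes, and over all 6 such fits the log2 fold change ranged from -1.85 to 0.19 for ATF3, from -0.61 to 0.12 for ASNS and from -0.70 to 0.26 for TRIB3.

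Over all genes, the counts called higher and lower ranged from 1144 to 1929 and from 1146 to 2062 with each library left out, the lowest of both without IGF2BP1-KD library 2. Of the genes called with all libraries, 89.9% were also called without IGF2BP1-NC library 1, and 76.3% of the calls of that fit were among the former. Pathway genes called higher numbered 11 with upper-quartile factors and 14 with quality weights, against 7, and ranged from 5 to 21 with each library left out. Those called lower ranged from 14 to 27, the lowest without IGF2BP1-KD library 2 or 3 and 15 without IGF2BP1-KD library 1. The cause was not tested beyond the loss of a library itself.

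The shared replicate numbers did not pair the libraries. Deviations from the group means of same-numbered libraries correlated across genes at -0.052, 0.036 and -0.11. With the replicate number as a block, 1413 genes were called higher and 1500 lower, and 0 of the 10 stress genes. Depth limits CHAC1, with 29 to 71 counts in 5 libraries.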

Other observations

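Genes outside the lists also stood high in IGF2BP1-NC library 1, and were picked for naming from their values. Ranked by the ratio to the mean of IGF2BP1-NC libraries 2 and 3 among genes whose mean log2 CPM was 3 or more, the top 20 held 6 of the 10 stress genes, 6 genes of the pathway lists and 8 others. Among the ranked genes DDIT4 (REDD1, an inhibitor of mTORC1 from the list of further ATF4 and CHOP targets) was highest, with 17918 counts in IGF2BP1-NC library 1, against 1280 and 1803 in IGF2BP1-NC libraries 2 and 3 and 1379, 1490 and 1335 in the knockdown libraries. CHAC1, whose mean level was too low for the ranking, had a higher ratio, 14.9 against 11.7 for DDIT4. The AP-1 subunit JUN was counted 2337, 606 and 535 times in the control and 495, 559 and 856 times in the knockdown libraries. TNFAIP3 (A20, an inhibitor of NF-kappaB signalling) had 986, 310 and 317 against 390, 402 and 600 counts. INHBE, an inhibin beta subunit gene of the same list, had a mean level too low for that ranking. It was counted 480, 33 and 31 times in the control and 110, 131 and 126 times in the knockdown libraries. Its log2 fold change was -0.56 with all libraries (edgeR adjusted p = 0.777) and 1.94 without IGF2BP1-NC library 1 (edgeR adjusted p = 5.2e-05). INHBE was named for its high count in that library, and leaving the library out lowers its control mean and spread. The value without that library is therefore descriptive and is not an independent test.

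At the other end of the ranking, EIF3C, ARHGAP23 and ESPN had the lowest ratios, 0.444, 0.461 and 0.510. EIF3C was counted 501, 1651 and 589 times in the control and 689, 557 and 512 times in the knockdown libraries. Its low ratio thus came largely from a high IGF2BP1-NC library 2. More abundant genes among the lowest were picked for naming from their values. TFRC, the transferrin receptor, was counted 16405, 23383 and 34504 times in the control and 27933 to 29460 times in the knockdown libraries. ALAS2, which starts erythroid heme synthesis, was counted 1980, 3348 and 3657 times in the control and 4488 to 5733 times in the knockdown libraries, and HMGCS1 of the cholesterol pathway 3641, 6224 and 7766 times against 4413 to 5725 times. The globin gene HBZ was counted 8224, 13224 and 15523 times in the control and 13801, 7617 and 10068 times in the knockdown libraries. These are values of single libraries without a test.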
